A study of Rattus norvegicus with 12 samples.

Results

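The enzymes described here are the aldehyde dehydrogenases (gene names starting with Aldh), aldo-keto reductases (Akr), alcohol dehydrogenases (Adh), carbonyl reductases (Cbr) and quinone reductases (Nqo) of rat insulin-secreting tumour cells. The families were picked with earlier results of these data known, and within them members were taken by gene name: every probe set of the array whose annotation gives 1 gene symbol, and whose symbol starts with one of these family names and a digit, was taken. The rule found 51 of 31099 probe sets, for 42 of the 14218 genes with a single symbol: 17 Aldh, 15 Akr, 5 Adh, 3 Cbr and 2 Nqo genes. One further probe set, annotated to both Aldh3b2 and Aldh3b3, was left out because it cannot be assigned to either. CRI-G1 is a cell line from a rat islet cell tumour. CRI-G1-RS is a subclone that arose from it during long culture and is susceptible to rotenone, an inhibitor of mitochondrial complex I, and CRI-G1-RR is the original, rotenone-resistant line. Each group is therefore 1 line, the susceptible one a single subclone, and differences between them are differences between these lines. Both were grown untreated in high-glucose medium, and 6 RS and 6 RR samples, described as biological replicates from different passages, were hybridised to 1 Affymetrix Rat 230 2.0 array each.

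Aldehyde dehydrogenases oxidise reactive aldehydes, such as those formed by lipid peroxidation, to carboxylic acids. Aldo-keto and carbonyl reductases turn aldehydes and ketones into alcohols with NADPH, alcohol dehydrogenases interconvert alcohols and aldehydes with NAD, and quinone reductases convert quinones directly to hydroquinones, which avoids the reactive semiquinone. Several of these genes, Nqo1 above all, are known targets of Nrf2, the transcription factor that responds to electrophiles and binds antioxidant response elements, and pancreatic beta cells are known for low levels of several antioxidant enzymes.

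Signals are linear intensities on a scale shared by all arrays, with a trimmed mean between 250.068 and 250.075 on each. Differences are log2 fold changes, RS minus RR, of quantile-normalised signals after adding 16, which understates changes of low signals. A gene was called changed at a Benjamini-Hochberg adjusted p under 0.05 from limma, adjusted over all 31099 probe sets, and the brightest probe set (by mean over the arrays) stands for its gene. Pearson correlations were 0.978 to 0.987 between arrays of 1 line and 0.952 to 0.965 between the lines. Signals of different probe sets depend on their probes, so no gene's level is set against another's.

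Of the 42 genes, 15 were lower and 3 higher in RS cells, and 24 were not called (limma, adjusted p under 0.05). These 18 called genes are 42.9% of the members, where 39.2% of all genes were called (by probe set, 18 of 51 against 31.7% of all), so that the share called was near that of the array as a whole. The direction was less even: 35.7% of the members were lower and 7.14% higher in RS cells, against 18.3% lower and 21.0% higher among all genes. Since genes of these families were already known to be lower in RS cells when the families were picked, this imbalance is a description and not independent evidence. With 16 added before logs, at least a 2-fold decrease was called for 4 members (Akr1b8, Aldh2, Nqo2 and Nqo1), or 9.52%, against 2.49% of all genes. On that scale no member was called at least 2-fold higher, against 2.36% of all genes. These counts depend on the added value. By mean signal alone, the called genes Adh4 and Akr1b7 were 2.34-fold and 3.82-fold higher in RS cells. Akr7a3, also called, was at 29.8% of its RR mean. All 3 have low signals. The median log2 fold change was -0.09 over the members and 0.02 over all genes. RS and RR arrays did not overlap for 15 of the 18 called genes and for Aldh16a1, which was not called. That is 16 of the 42 members, where 27.2% of all genes had arrays that did not overlap. At a mean signal of at least 100 it was 12 of 22 members and 3427 of 8684 genes. Each of the 16 members whose arrays did not overlap has an exact two-sided permutation p of 0.00216, the smallest that 6 arrays against 6 can give. That p follows from the lack of overlap and adds no separate evidence.

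**Figure D1:**
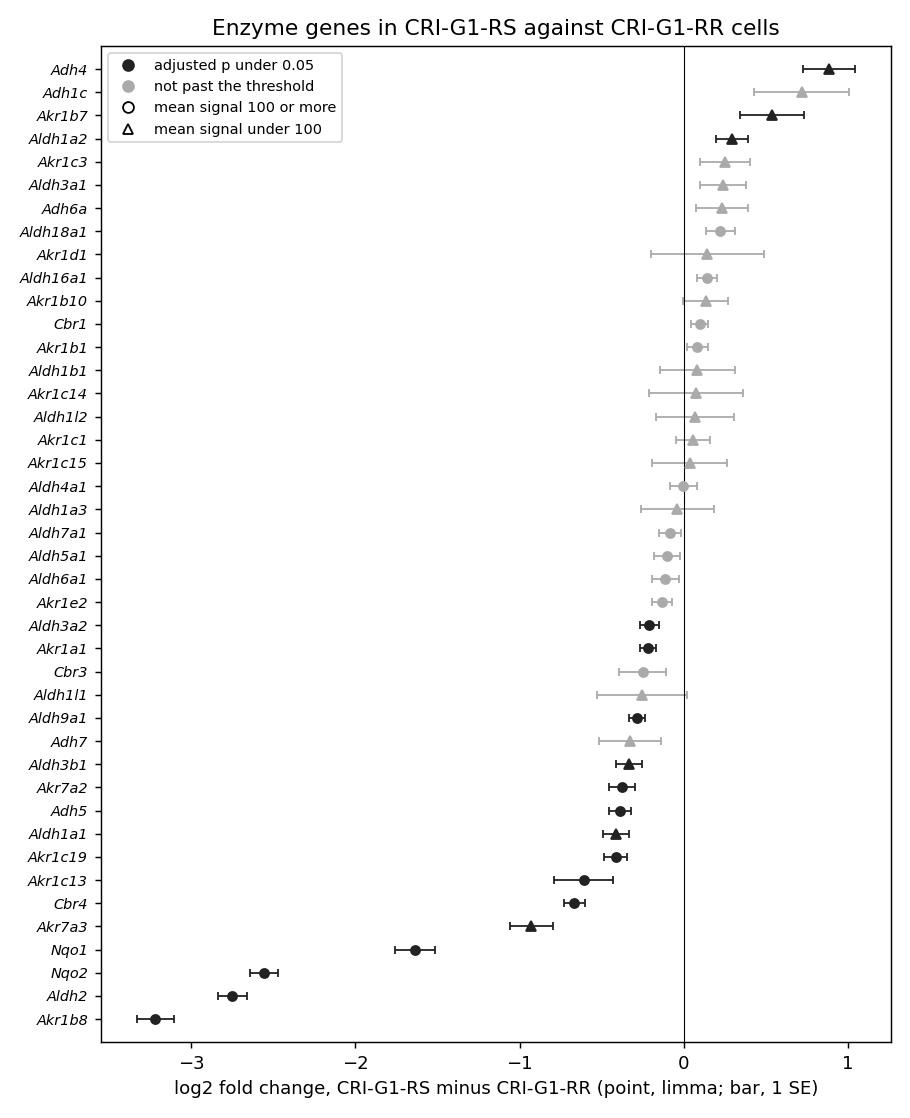
Log2 fold change (RS minus RR, horizontal axis; points, with bars of 1 standard error) of the 42 member genes in order of size, black where called and grey where not, with circles for a mean signal of at least 100 and triangles below it. The 4 points farthest to the left belong to Akr1b8, Aldh2, Nqo2 and Nqo1.

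Both quinone reductases were lower in RS cells by more than 2-fold. Nqo1, which reduces quinones with NADH or NADPH, had signals with a lowest, median and highest of 365, 462 and 477 on the RS arrays, against 997, 1535 and 1628 on the RR arrays. Its RS mean was 31.2% of the RR mean, and the log2 difference was -1.64 (standard error 0.12, adjusted p = 4.29e-07 from limma). The highest RS array lay well below the lowest RR array, although RR arrays were themselves spread widely. Nqo2, which uses dihydronicotinamide riboside rather than NADH or NADPH and binds melatonin, gave 31.1, 35.4 and 50.5 (lowest, median, highest) in RS cells, against 269, 288 and 333 in RR cells. Its RS mean was 12.7% of the RR mean, and the log2 fold change was -2.56 (standard error 0.08, adjusted p = 5.86e-10 from limma). All 6 RS arrays were far below all 6 RR arrays, which lay close together. Replicate 4 was the lowest array of its line for Nqo1 and the highest of its line for Nqo2, in both lines.

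The promoters of Nqo1 and Nqo2 are shown because both genes fell, and that of Akr1b8 because it had the largest decrease of all members. Each is the 250 bases before the annotated start of the gene in RefSeq (GRCr8). Capitals mark matches, on either strand, to TGANNNNGC, a pattern looser than the core TGACNNNGC of the antioxidant response element. This loose pattern was chosen after the sequences were seen. Counted to 50 bases after the start, it was in 8 of 17 called members, 8 of 18 not called and 40.5% of all promoters. A match to it is therefore not evidence of such an element. Nqo1 lies on the minus strand (chr19:52220268-52220517), Nqo2 on the minus strand (chr17:31143663-31143912) and Akr1b8 on the plus strand (chr4:63964171-63964420).
Nqo1: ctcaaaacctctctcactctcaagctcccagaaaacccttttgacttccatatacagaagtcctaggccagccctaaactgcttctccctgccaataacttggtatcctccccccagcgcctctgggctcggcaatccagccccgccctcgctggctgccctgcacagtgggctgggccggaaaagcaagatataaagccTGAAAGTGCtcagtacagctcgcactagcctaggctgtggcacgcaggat
Nqo2: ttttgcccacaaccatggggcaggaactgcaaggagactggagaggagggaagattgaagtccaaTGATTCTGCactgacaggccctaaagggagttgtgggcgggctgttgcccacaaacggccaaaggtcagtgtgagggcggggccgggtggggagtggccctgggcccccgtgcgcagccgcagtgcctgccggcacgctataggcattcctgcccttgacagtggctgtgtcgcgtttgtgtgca
Akr1b8: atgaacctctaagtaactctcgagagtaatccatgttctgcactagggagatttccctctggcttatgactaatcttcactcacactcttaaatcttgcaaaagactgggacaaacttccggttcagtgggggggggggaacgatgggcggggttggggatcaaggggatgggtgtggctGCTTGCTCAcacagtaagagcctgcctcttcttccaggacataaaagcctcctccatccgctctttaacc
The match begins 50 bases before the start in Nqo1, 185 in Nqo2 and 70 in Akr1b8, where it is read on the opposite strand. None of the 3 stretches holds the core TGACNNNGC itself on either strand, which says only that these letters are not within this window.

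Of the 15 aldo-keto reductases, 6 were lower and 1 was higher in RS cells, and they included the largest decrease of any member. The share called, 46.7%, was near the 39.2% of all genes. Akr1b8, an aldose reductase-like enzyme that reduces lipid-derived aldehydes, had signals of 61.6, 74.2 and 79.7 (lowest, median, highest) in RS cells, against 573, 824 and 989 in RR cells. Its RS mean was 8.96% of the RR mean, and the fitted log2 difference was -3.22 (standard error 0.11, adjusted p = 8.82e-10 from limma). No RS array came near any RR array. The 3 other Akr1b genes adjoin it on chromosome 4 and did not move with it. Akr1b1, aldose reductase itself, the first enzyme of the polyol pathway, had 1618, 1806 and 1846 in RS cells, against 1537, 1659 and 1874 in RR cells (log2 fold change 0.08, adjusted p = 0.365), and its arrays overlapped throughout. Akr1b10 was not called (0.13, adjusted p = 0.52). Akr1b7, an aldose reductase-like protein, had barely any signal, with 2.6, 10.5 and 28 in RS cells, against 2.18, 3.74 and 5.5 in RR cells (log2 fold change 0.54, standard error 0.19, adjusted p = 0.0494). The lines overlapped for Akr1b7, and the call was lost with median centring (adjusted p = 0.0563) and on leaving out any 1 array other than RS replicates 4 and 6 (adjusted p between 0.0624 and 0.0961).

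Akr7a3 and Akr7a2, neighbours on chromosome 5, were both lower in RS cells. Akr7a3, the aflatoxin aldehyde reductase, had 3.13, 8.6 and 20.7 (lowest, median, highest) in RS cells, against 28.2, 30.1 and 33.3 in RR cells, which the fit gave as -0.93 (standard error 0.13, adjusted p = 0.000113). The arrays did not overlap, but the signals are low and the size depends on the value added before taking logs: it was -1.86 with 1 added and -0.38 with 64. Akr7a2, which reduces succinic semialdehyde, changed less, by -0.38 on the log2 scale (adjusted p = 0.00214), with signals of 398 to 536 in RS cells, against 548 to 649.9 in RR cells. Akr1a1, the general aldehyde reductase, was lower by a small amount (-0.21, adjusted p = 0.00419), with 4793 to 5559 in RS cells, against 5996 to 6422 in RR cells.

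In the Akr1c cluster on chromosome 17, whose members are hydroxysteroid dehydrogenases with closely related sequences, 2 of 6 genes were called, and both were lower in RS cells. Of all genes, 39.2% were called. Akr1c13 had 361, 556 and 866 (lowest, median, highest) in RS cells, against 712, 814 and 908 in RR cells, and the fit gave -0.61 (standard error 0.18, adjusted p = 0.0205 from limma, exact permutation p = 0.013). Its groups overlapped because RS replicate 2, at 866, lay within the RR range. The call was lost without RR replicates 1 to 3 (adjusted p = 0.178) and without RR replicates 4 to 6 (adjusted p = 0.0691). Its neighbour Akr1c19 had 515 to 707 in RS cells, against 763 to 868 in RR cells, with no overlap (-0.41, adjusted p = 0.000529). Akr1c1 (0.06), Akr1c3 (0.25), Akr1c14 (0.08) and Akr1c15 (0.04) were not called, with adjusted p between 0.246 and 0.932, although Akr1c3 passed without RS replicate 3 (adjusted p = 0.00931). Probe sets of such close relatives can share signal, so values of single Akr1b and Akr1c genes are uncertain to that extent. Akr1e2, which reduces anhydrofructose, was not called (-0.13, adjusted p = 0.133), and neither was Akr1d1, a steroid reductase of bile acid synthesis (0.14, adjusted p = 0.81).

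**Figure D2:**
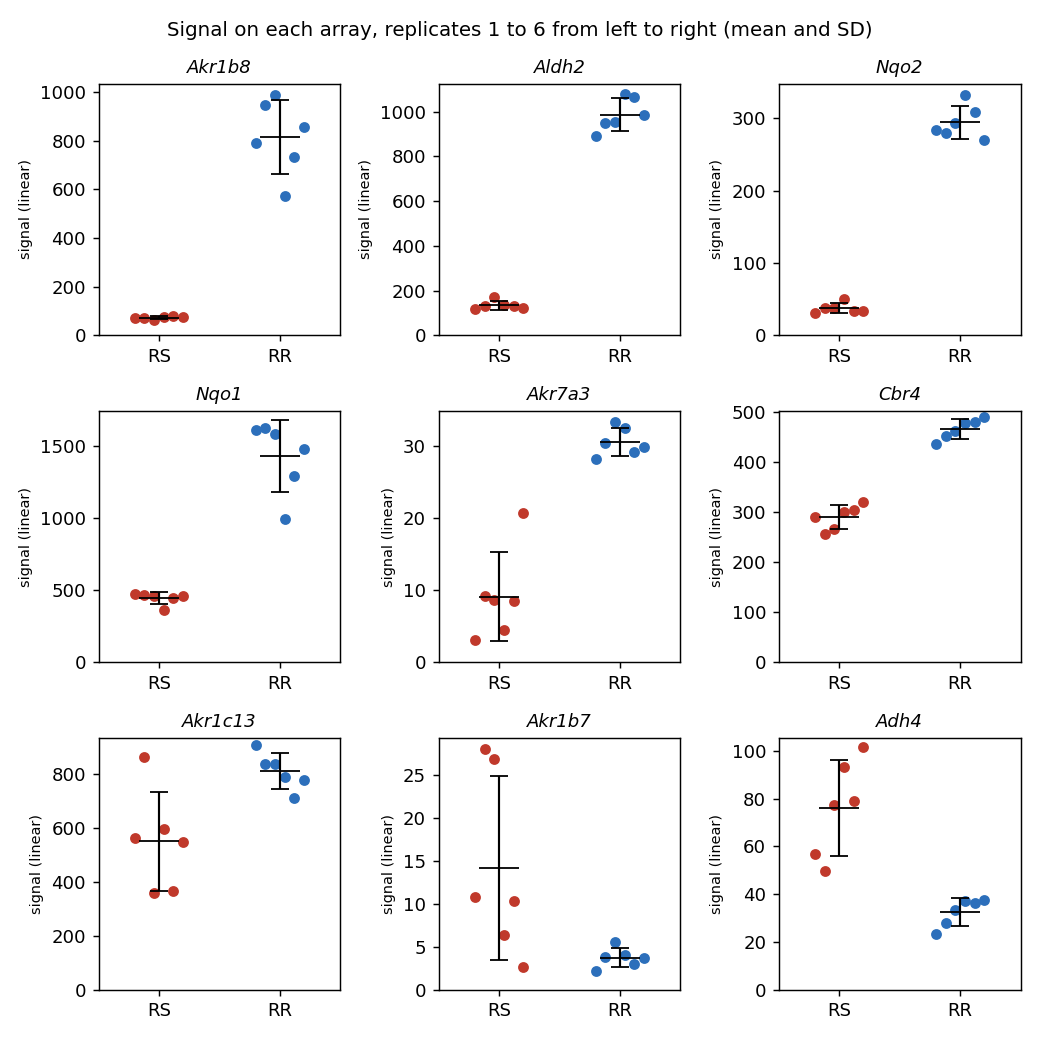
Signal on each array (vertical axes, linear, each with its own scale from 0) of the 9 member genes called with an absolute log2 fold change of at least 0.5, as 1 point per array with the mean and SD of the 6 RS arrays (red) and the 6 RR arrays (blue). RS and RR points are fully apart in every panel except those of Akr1c13 and Akr1b7.

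Aldehyde dehydrogenases were led by Aldh2, the mitochondrial enzyme that oxidises acetaldehyde and the lipid peroxidation product 4-hydroxynonenal. Its signals were 116, 132 and 172 (lowest, median, highest) in RS cells, against 891, 969 and 1077 in RR cells. The RS mean was 13.6% of the RR mean, and the log2 fold change was -2.75 (standard error 0.09, adjusted p = 3.61e-10 from limma). RS and RR arrays were far apart, and the change was between -2.88 and -2.41 with 1 or 64 added in place of 16. Of the other 16 Aldh genes, 4 were lower, 1 was higher and 11 were not called. With Aldh2, 35.3% of the Aldh genes were called, near the 39.2% of all genes.

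The other decreases among the Aldh genes were modest, with RS and RR arrays that did not overlap. Aldh1a1, a cytosolic retinaldehyde dehydrogenase, had 34.7 to 50.9 in RS cells, against 52.2 to 73.1 in RR cells (log2 fold change -0.41, adjusted p = 0.0012). Aldh3b1, which oxidises medium- and long-chain aldehydes, had 49.4 to 68.3 in RS cells, against 70.4 to 96.6 in RR cells (-0.33, adjusted p = 0.00678). Aldh9a1, an enzyme of carnitine synthesis, had 532 to 583 in RS cells, against 638 to 737 in RR cells (-0.29, adjusted p = 0.000564). All 3 changed in the same direction as Aldh2, by less. Aldh3a2, the fatty aldehyde dehydrogenase, had 585 to 709 in RS cells, against 713 to 784 in RR cells (-0.21, adjusted p = 0.0114). Its neighbour on chromosome 10, Aldh3a1, was not called (0.24, adjusted p = 0.233, and 0.0387 without RR replicate 5). Aldh1a2, a further retinaldehyde dehydrogenase, was higher in RS cells, with 67.5 to 111, against 56.6 to 76 in RR cells, and the lines overlapped (0.29, adjusted p = 0.0324, exact permutation p = 0.0152). That call was lost on leaving out any 1 of RS replicates 1, 2 or 4 or of RR replicates 1, 2, 4 or 5 (adjusted p between 0.0536 and 0.0719), with an intensity trend (0.0547), and without RR replicates 1 to 3 (0.125) or 4 to 6 (0.147).

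The Aldh genes of amino acid metabolism were not called. Aldh7a1, of lysine breakdown, had 1270.5 to 1439 in RS cells, against 1302 to 1619.5 in RR cells (-0.09, adjusted p = 0.392). Aldh4a1, of proline breakdown, had medians of 219 in RS cells and 218 in RR cells (adjusted p = 0.996). Aldh18a1, of proline synthesis, had 662 to 926 in RS cells, against 605 to 737 in RR cells (0.22, adjusted p = 0.0656), and it was called as higher under 5 alternatives: without RS replicate 3 (adjusted p = 0.0146), with 64 added before logs (0.0457), at a mean signal of at least 50 (0.037), with an intensity trend (0.0375) and by the mean of probe sets (0.0479). The ranges of all 3 genes overlapped between the lines. Aldh5a1, succinic semialdehyde dehydrogenase, had 3 probe sets that differed in direction, with log2 fold changes of -0.10 (adjusted p = 0.395) for the brightest and of 0.69 (adjusted p = 0.076) and -0.06 (adjusted p = 0.769) for the others. Aldh6a1, methylmalonate semialdehyde dehydrogenase, had probe sets at -0.11 (adjusted p = 0.349) and 0.10 (adjusted p = 0.666). Aldh16a1 was the gene whose arrays did not overlap without being called, with 534 to 659 in RS cells, against 495 to 524 in RR cells (0.14, adjusted p = 0.104). Aldh1a3 (-0.04), Aldh1b1 (0.08), Aldh1l1 (-0.25) and Aldh1l2 (0.07) were not called, with adjusted p of at least 0.553.

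Alcohol dehydrogenases, which lie next to each other on chromosome 2, moved in both directions. Adh4, an alcohol dehydrogenase that also oxidises retinol, had 49.6, 78.1 and 102 (lowest, median, highest) in RS cells, against 23.1, 34.9 and 37.8 in RR cells. Its log2 fold change was 0.89 (standard error 0.16, adjusted p = 0.000628 from limma), and RS arrays lay above all RR arrays, though the signal is low in both lines. Adh5, the formaldehyde dehydrogenase that also reduces S-nitrosoglutathione, had 1630.0 to 1832 in RS cells, against 2109 to 2693 in RR cells, with no overlap (-0.39, adjusted p = 0.000444). These neighbours therefore differed between the lines in opposite directions. Adh1c (0.72, adjusted p = 0.0779), Adh6a (0.23, adjusted p = 0.31) and Adh7 (-0.33, adjusted p = 0.233) were not called, and Adh1c had a second probe set at 0.12 (adjusted p = 0.747). Adh1c passed on leaving out RS replicate 1 or RR replicates 5 or 6 (adjusted p between 0.015 and 0.0344).

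Of the carbonyl reductases, the mitochondrial one was lower in RS cells. Cbr4, which works with Hsd17b8 in mitochondrial fatty acid synthesis and also reduces quinones, had 257, 296 and 322 (lowest, median, highest) in RS cells, against 436, 471 and 492 in RR cells. The RS mean was 62.1% of the RR mean, and the fitted difference was -0.67 (standard error 0.06, adjusted p = 3.52e-06 from limma), and the arrays did not overlap. Hsd17b8, by contrast, was higher in RS cells (0.36, adjusted p = 0.00423). Cbr1, the main cytosolic carbonyl reductase, was not called, with 1409, 1438 and 1564 in RS cells, against 1308, 1359 and 1456 in RR cells (0.10, adjusted p = 0.181, exact permutation p = 0.013). Cbr3, which lies near it on chromosome 11, was not called either (-0.25, adjusted p = 0.221).

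**Figure D3:**
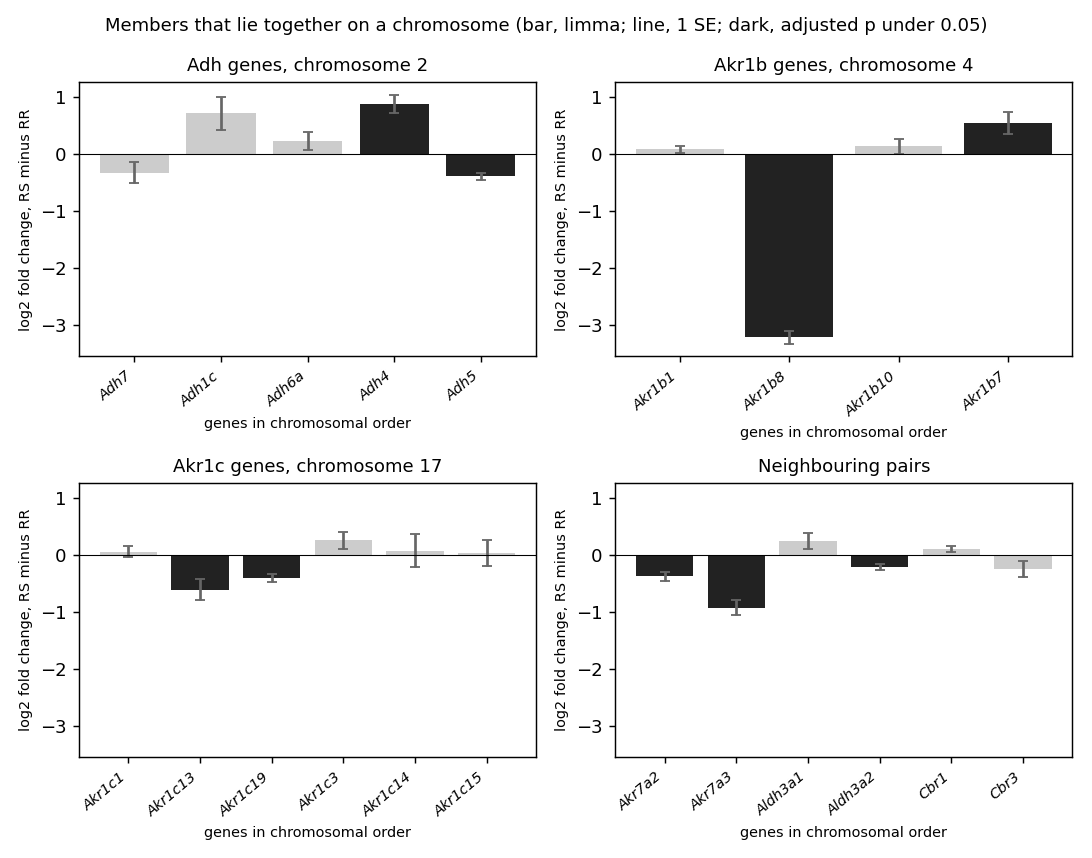
Log2 fold change (RS minus RR, vertical axes; bars, with lines of 1 standard error) of members that lie near each other, in their order along the rat chromosome (GRCr8), dark where called and pale where not. Akr1b8 at -3.22 stands beside Akr1b1 at 0.08, and Adh4 at 0.89 beside Adh5 at -0.39.

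None of the 16 probe sets of the 7 member genes with more than 1 was called by limma, and 2 of them, 1 each of Adh1c and Aldh5a1, had an unadjusted p under 0.05, as they had by the exact permutation test. Besides Aldh5a1 and Aldh6a1, probe sets differed in direction for Akr1b10 (0.13 and -0.22, adjusted p = 0.52 and 0.615) and Akr1d1 (0.14 and -0.03, adjusted p = 0.81 and 0.816). The genes around the members with the largest changes were also read from the same fit. Over the 20 nearest genes whose signal averaged 100 or more, the median log2 fold change was -0.08 around Akr1b8, -0.04 around Aldh2, 0.04 around Nqo2 and 0.07 around Nqo1, all small beside the changes of the genes themselves. Around Akr7a3 it was 0.35, opposite in sign to Akr7a3.

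Directions were also counted among brighter and dimmer members, with no test of the difference between them. Among the 22 with a mean signal of at least 100 over all arrays, 12 were lower in RS cells and none was higher. The fit gave 2 of them as higher at an unadjusted p under 0.05, and the exact permutation test gave 3. Of all genes this bright, 25.2% were lower and 28.6% higher in RS cells. The median log2 fold change was -0.23 over these 22 members, of which 18 were negative, and 0.03 over all genes this bright. Among the 20 dimmer members 3 were lower and 3 higher, where 16.4% of all genes this dim were called in either direction, and the median was 0.08. The split is not independent of the change, since Akr1b8 and Nqo2 averaged under 100 in RS cells and were in the brighter set only through their RR signals.

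Matches to the antioxidant response element core and to the loose pattern were counted in the RefSeq promoters. These run from 250 bases before to 50 bases after the gene start. Promoters were matched for 35 of the 42 members, 17 of them called. The called member without a promoter was Aldh2. The stricter core TGACNNNGC, on either strand, was found in 2 of 17 called members and 2 of 18 members not called, and in 12.1% of all 33469 promoters. The loose pattern TGANNNNGC, which includes every match to the stricter core, was found in 8 of 17 called members and 8 of 18 not called. It was in 40.5% of all promoters. Cbr4 and Akr7a3, both lower in RS cells, had no match to either. The called members with the stricter core were Aldh9a1, within the bases after its start, and Aldh1a2, whose promoter (chr8:80758391-80758640, plus strand) is printed as the only one with that core before the start, in capitals, 161 bases before it.
Aldh1a2: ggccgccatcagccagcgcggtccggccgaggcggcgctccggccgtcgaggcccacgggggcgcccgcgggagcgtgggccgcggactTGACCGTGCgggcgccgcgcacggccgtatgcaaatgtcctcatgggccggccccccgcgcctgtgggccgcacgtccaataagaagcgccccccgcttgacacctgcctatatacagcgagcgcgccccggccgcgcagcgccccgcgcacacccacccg
Aldh1a2 was 1 of the 3 members higher in RS cells, and Aldh9a1 was lower.

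Genes around these enzymes were taken from lists chosen with the study's own results in view, so their directions are not independent evidence. The shares to set beside each list count below are those of all genes, 18.3% lower and 21.0% higher in RS cells. The lists overlap, so their counts are not separate. Of the Nrf2 targets, Gpx2, Mgst2, Txnrd1 and Gstp1 also count among the glutathione and thioredoxin enzymes. Ephx1 also counts among the enzymes of aldehydes, carbonyls and epoxides, and Pgd and Me1 among those supplying NADPH. Of 13 regulators of Nrf2, 6 were higher and 3 lower in RS cells, with a median log2 fold change of 0.13 beside 0.02 for all genes. Keap1, the adaptor that holds Nrf2 for degradation, was higher (0.45, adjusted p = 0.000439), as were Rbx1, a subunit of its ubiquitin ligase (0.65, adjusted p = 5.86e-06), and Btrc, an adaptor of a second ligase (0.82, adjusted p = 8.21e-06). Nfe2l2, which encodes Nrf2, was lower (-0.40, adjusted p = 0.000825), with its small Maf partner Mafk (-0.39, adjusted p = 0.000794). So was Park7, reported to stabilise Nrf2 in some cell types (-0.25, adjusted p = 0.00541). In the study, quantitative PCR gave no significant change of Nfe2l2, whereas nuclear Nrf2 protein was lower in RS cells. Of the members, Nqo1 and Nqo2 were lower in RS cells by the study's quantitative PCR. Aldh2 protein was also lower there, and treatment with activators of Nrf2 did not raise it in either line. Of 25 measured Nrf2 targets outside the enzyme families, 15 were lower and 1 was higher, with a median of -0.28, and 8 were at least 2-fold lower. The largest decreases were those of Gpx2, a glutathione peroxidase (-5.17, adjusted p = 4.79e-14), Mgst2, a microsomal glutathione S-transferase (-3.32, adjusted p = 8.88e-13), and Ephx1, the microsomal epoxide hydrolase (-2.42, adjusted p = 9.34e-09). The increase was that of Gstm1, a glutathione S-transferase (0.25, adjusted p = 0.0395), a call lost with median centring (adjusted p = 0.0881) and on leaving out any 1 of RS replicates 3, 5 or 6 or of RR replicates 1 to 5 (adjusted p between 0.0502 and 0.0844).

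Of 35 other enzymes of aldehydes, carbonyls and epoxides, 15 were lower and 6 higher, with a median of -0.04. Ptgr1, a prostaglandin and alkenal reductase (-2.67, adjusted p = 5.44e-08), and Gsta4, the glutathione S-transferase that conjugates 4-hydroxynonenal (-1.32, adjusted p = 4.49e-08), were among the lower ones. Dhrs4, a carbonyl and retinal reductase (0.76, adjusted p = 1.85e-06), and Ephx2, the soluble epoxide hydrolase (0.61, adjusted p = 0.00284), were higher. Of 12 NADPH-supplying enzymes, 4 were lower and 1 was higher, with a median of -0.11. Cytosolic Idh1 (-1.13, adjusted p = 5.44e-08), the mitochondrial NAD kinase Nadk2 (-1.03, adjusted p = 0.000171) and the transhydrogenase Nnt (-0.46, adjusted p = 4.27e-05) were lower. Mitochondrial Idh2 was higher (0.20, adjusted p = 0.00881), a call lost with the deposited scaling alone (adjusted p = 0.0639).

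Of 18 measured genes of the retinoid pathway, to which Aldh1a1 and Aldh1a2 contribute, 4 were higher and 2 lower in RS cells, with a median of 0.15. Cyp26b1, which degrades retinoic acid (1.31, adjusted p = 6.15e-07), and the receptors Rxrg (0.69, adjusted p = 0.00196) and Rara (0.62, adjusted p = 3.59e-05) were higher. The retinol-binding protein Rbp2 (-0.72, adjusted p = 0.00288) and the receptor Rarg (-0.64, adjusted p = 0.00282) were lower. Glutathione and thioredoxin enzymes, taken by gene name as the members were, had 10 of 42 higher and 15 lower (median -0.14, 5 at least 2-fold lower). Of 81 cytochrome P450 and conjugation enzymes, 6 were higher and 14 lower (median -0.00). No difference between these lists and the members was tested.

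**Figure D4:**
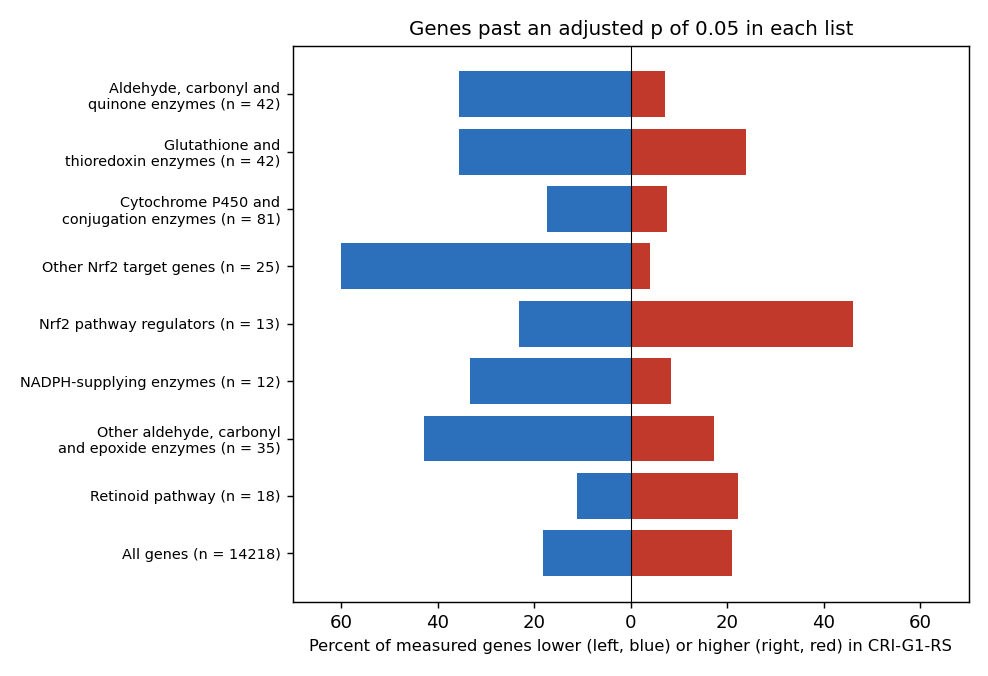
Percent of the measured genes of each list (horizontal axis, both sides counted from 0) called lower (left, blue) or higher (right, red) in RS cells by limma, with all genes in the bottom row. Nrf2 targets outside the enzyme families have 15 of 25 genes lower and 1 higher, and the members 15 of 42 lower and 3 higher. The lists overlap, so some genes count in more than 1 row.

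Markers of cell types were read on the same arrays, where 18.3% of all genes were lower and 21.0% higher in RS cells. Of 16 islet endocrine markers, 8 were higher and 1 was lower in RS cells, and their summed signal was 37419 to 43935 in RS cells, against 34920 to 39311 in RR cells. Of the insulin genes, Ins2 was higher (1.30, adjusted p = 2.97e-05) and Ins1 was not called (-0.06, adjusted p = 0.408). The study itself reported Ins1 as higher in RS cells, on its arrays and by quantitative PCR. Pdx1, an islet transcription factor, was higher (1.09, adjusted p = 5.52e-07), and Pax6, another, was the lower marker (-0.46, adjusted p = 2.52e-05). Of 8 intestinal epithelium markers, 3 were lower, 1 was higher and 4 were not called. Their summed signal was 1759 to 1991 in RS cells, against 9762 to 11961 in RR cells. Vil1, Tff3 and Lgals4 were the lower ones. Cdx2 was higher (0.59, adjusted p = 0.000108), with mean signals of 977 in RS cells and 647 in RR cells. Cdx1 and Fabp2, which were not called, had mean signals of 16.7 and 1.87 in RS cells, against 16.1 and 1.45 in RR cells. Of 8 hepatocyte markers, 4 were lower and the others were not called, with sums of 411 to 587 in RS cells, against 1129 to 1673 in RR cells. A sum is weighted to its brightest probe sets. Here it mainly reflects Fgb, with mean signals of 236 in RS cells and 989 in RR cells, and Apob, with 5.11 and 148. Alb was also 1 of the 4 lower markers (-0.47, adjusted p = 0.0165), at low mean signals of 16.4 in RS cells and 28.7 in RR cells. Mean signals were under 50 for 8 of 9 acinar, all 4 endothelial and all 6 leukocyte markers, and of 8 fibroblast markers 1 was higher. Both groups are cultures of 1 tumour line and its subclone, so these markers describe expression in the cultures and do not count cells of other tissues. Whether all cells of a culture or only a fraction differ cannot be told from bulk samples. The part of these differences in the enzymes' values was not tested.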

How the data were processed

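The deposited values are intensities on a linear scale, 1 for each probe set on each array, which the authors had scaled to a common trimmed mean (GCOS 1.4 in the submitters' processing notes). The methods describe log2 values of robust multi-chip averaging, which these are not. Signals printed are the deposited intensities. For the tests they were quantile normalised, logged as log2(signal + 16), and all 12 arrays were fitted with limma (version 3.58.1 under R 4.3.3), the cell line being the single term. P-values were adjusted over 31099 probe sets with no filter on low signal. Exact permutation tests of 1 gene enumerated all 924 splits (Python 3.11.15, scipy 1.17.1). No detection calls were used. The precision is limited by the number of arrays. Tested on simulated data of all 31099 probe sets for this comparison, the fit recovered 97 of 100 2-fold and 77 of 100 1.5-fold changes, with 5 false calls among 30899. These changes were placed only in probe sets with a mean signal of at least 100, and on the logged values. Recovery at lower signals, where 20 of the 42 members lie, was therefore not simulated. Gene symbols come from the platform annotation (1 symbol for 20832 probe sets, several for 436, none for 9831), and all 42 members were matched by gene ID to RefSeq (GRCr8) for gene order. Sequences are RefSeq promoters.

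Members and lists were chosen with earlier results of these data known. Full values are given for called members with an absolute log2 fold change of at least 0.5, the change and p for other called members, values for members whose probe sets disagree and for housekeeping members, and up to 3 called genes per direction of each related list. The loose motif was chosen after the sequences were seen. The alternatives were other scalings, other added values, a signal filter, the replicate number as a block, array weights, an intensity trend, leaving out probe sets that can match several transcripts, the mean over a gene's probe sets, and leaving out arrays.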

Additional observations from a re-analysis of the deposited data

Results flagged for a closer look

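In 6 of 56 groups of 6 arrays, 1 array lay far from the others of its line, and chance gives about 5% of groups. Nqo1 had 365 in RS replicate 4, where the other RS arrays had 449 to 477, and Nqo2 had 50.5 in the same replicate, where the others had 31.1 to 38.2. Both values are far below those of RR cells (at least 997 for Nqo1 and 269 for Nqo2). Aldh2 had 172 in RS replicate 3, where the others had 116 to 136. Akr7a3 had 20.7 in RS replicate 6, where the others had 3.13 to 9.14. Cbr1 had 1564 in RS replicate 4, where the others had 1409 to 1467. Aldh16a1 had 495 in RR replicate 1, where the others had 515 to 524.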

How the results depend on the processing

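Under 24 alternatives no called gene changed direction, whereas the sign of 11 genes that were not called differed between alternatives. Akr1b8, Aldh2, Nqo2, Nqo1, Cbr4, Akr7a3 and Adh4 kept their calls wherever they were measured, with log2 fold changes of -3.46 to -2.67 for Akr1b8, -2.88 to -2.41 for Aldh2, -2.97 to -1.83 for Nqo2 and -1.83 to -1.44 for Nqo1. Nqo1 gave no value without probe sets that can match several transcripts, and Akr7a3 and Akr1b7 gave none at a mean signal of at least 50. Leaving out each array in turn gave 15 lower members each time, 1 to 4 higher members in place of 3, 16 to 19 member probe sets in place of 18, and 9162 to 10010 of all probe sets in place of 9860. Without RR replicates 1 to 3, 1 member was higher and 14 were lower, and without RR replicates 4 to 6, 2 were higher and 12 lower. Both settings lost Akr1c13, Akr1b7 (adjusted p = 0.206 and 0.184) and Aldh1a2, and 1 of them each lost Akr1a1 (adjusted p = 0.0672 without RR replicates 1 to 3), and Aldh3a2 (0.117) and Aldh3b1 (0.0614, both without RR replicates 4 to 6), and among related genes Hsd17b8 (0.0598 without RR replicates 1 to 3) and Park7 (0.0746 without RR replicates 4 to 6). Adh7 was called as lower without RR replicates 1 to 3 (-0.65, adjusted p = 0.0243), and Adh1c as higher without RR replicates 4 to 6 (1.13, adjusted p = 0.0151). The cause was not tested. Passages were taken in pairs, but the labels do not say that the replicate number gives the pair, and the deviations of same-numbered arrays correlated at -0.05 to 0.16. With the replicate number as a block, 1 member was higher in place of 3 and 15 were lower, with Akr1b7 (adjusted p = 0.0583) and Aldh1a2 (0.0715) lost, and 9204 probe sets were called in place of 9860. Low signals limit Akr7a3, Akr1b7 and Adh4, whose size depends on the value added before logs: 0.20 to 1.35 for Akr1b7 and 0.52 to 1.16 for Adh4.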
